A study of Mus musculus with 2 samples.

Results

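Endothelial cells were selected from 2 single-cell RNA libraries of dissected mouse somites as the cells that carried vessel-lining transcripts and lacked those of 3 neighbouring lineages. A cell with at least 200 and fewer than 6500 genes and under 15% mitochondrial UMIs (unique molecular identifiers, the counted transcript copies) was a member when Cldn5, Cdh5, Emcn and Pecam1 together gave at least 4 UMIs from at least 2 of these genes, with no UMI of Meox1, Sox2 or Ptprc. These 3 genes mark somite, neural and blood cells. In all, 319 of 19446 cells were members. At embryonic day (E) 9.5 they were 260 of 9851 cells, or 2.64% (exact 95% binomial interval 2.33 to 2.98). At E11.5 they were 59 of 9595 cells, or 0.615% (0.468 to 0.792).

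Both libraries came from the trunk somites between the limb buds of wild-type C57BL/6 embryos, for which no transgene or agent is named, with the tissue of 3 embryos in each library. Each stage was therefore measured in 1 sample, and no test between stages was possible. The E9.5 library held 149368952 UMIs over 10121 barcodes and the E11.5 library 136655763 over 10167, and 25 barcode sequences occurred among the kept cells of both. All intervals below cover counting error only, not the spread between embryos or dissections. Intervals of UMI counts also leave out the spread between cells. Stage cannot be told apart from the library, the pool of embryos or the vessels that came away with the tissue.

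Endothelial cells line blood and lymph vessels. In the early embryo they arise from mesodermal precursors under the ETS-family factor ETV2, assemble into a first network through VEGF signals received by KDR and FLT1, and later become arterial under Notch signalling or venous under the nuclear receptor NR2F2. Vessels sprout into tissue behind leading tip cells and are stabilised by a basement membrane of collagen IV, laminin and perlecan. In the trunk, intersegmental vessels run between neighbouring somites.

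The E9.5 members held 4060588 UMIs and the E11.5 members 1013180, with medians per cell of 13916 and 13571, close to the 12433 and 12476 of the other cells. Their median mitochondrial share was 2.49% at E9.5 and 3.95% at E11.5. Levels are given as UMIs of a gene per 1000000 UMIs of the cells (UPM), with the exact 95% Poisson interval. A UMI in all members together was worth 0.246 UPM at E9.5 and 0.987 UPM at E11.5, so that low genes were measured less finely at E11.5.

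The 4 selecting genes describe the choice and were not tested. Cldn5, a tight-junction claudin (ENSMUSG00000041378, GRCm38 chr16:18776847-18778262), stood at 861 UPM (833 to 890) at E9.5 and 807 UPM (753 to 865) at E11.5. Cdh5, the adherens-junction VE-cadherin (ENSMUSG00000031871, chr8:104101625-104144511), stood at 447 UPM (427 to 468) and 948 UPM (889 to 1009). Emcn, the sialomucin endomucin (ENSMUSG00000054690, chr3:137341067-137432185), stood at 598 UPM (574 to 622) and 778 UPM (724 to 834). Pecam1, the adhesion molecule CD31 (ENSMUSG00000020717, chr11:106654217-106750628), stood at 137 UPM (126 to 149) and 450 UPM (410 to 493). Cldn5 led at E9.5 and Cdh5 at E11.5, and Pecam1 was the least abundant of the 4 at both stages.

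Most members lay far inside the selection. The summed UMIs of the 4 genes had a median of 29 and quartiles of 19 and 41 among E9.5 members, and a median of 45 and quartiles of 33.5 and 70.5 among E11.5 members. All 4 genes were detected in 168 members at E9.5 and in 51 at E11.5. At the edge, 2 cells of each stage had exactly 4 UMIs, while 4 E9.5 cells and 5 E11.5 cells with 3 UMIs stayed outside. Over 30 other endothelial genes, the cells with 4 UMIs summed to 6742 UPM at E9.5 and 2404 UPM at E11.5, the cells with 3 UMIs to 1765 and 823 UPM, and all members to 6085 and 8259 UPM.

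These 30 endothelial genes, which the selection did not use, stood well above the other cells of the same library. Of 3229 genes with at least 50 UMIs in the members of each stage, 233 (7.22%) were at least 4-fold above the other cells in both libraries with the interval of the ratio above 1. In cells thinned to 5000 UMIs, which leaves fewer UMIs per gene, 65 genes met this. Among the 30 endothelial genes, 28 could be compared in this way and 27 met the criterion. The exception was Fli1, an ETS factor also made by blood cells, at 8.13-fold at E9.5 and 3.62-fold at E11.5. The label of the members was thus matched at both stages by endothelial markers that did not choose them. Egfl7, an angiogenic matrix factor, was the most abundant of the list at 990 UPM at E9.5 and 944 UPM at E11.5, or 25.5-fold and 48.3-fold above the other cells. Kdr, the main VEGF receptor, was at 389 and 530 UPM, or 38.4-fold and 198-fold above them.

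The 12 genes with the highest lower bound of the ratio to the other cells, taken as the smaller of both libraries, were Cldn5, Esam, Cdh5, Tek, Pecam1, Sox17, Pcdh12, Gimap1, Emcn, Tie1, Adgrl4 and Myct1. For Cldn5, Cdh5, Pecam1 and Emcn this follows from the selection. Esam, a junctional adhesion molecule, was at 286 UPM against 2.34 in the other cells at E9.5, and at 387 UPM against 1.59 at E11.5. Tek and Tie1, the receptors of the angiopoietin system, were at 91.6 and 70.4 UPM at E9.5 and at 75.01 and 132 UPM at E11.5. The protocadherin Pcdh12 was at 31.5 and 77.0 UPM, at 138-fold and 191-fold above the other cells.

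**Figure D1:**
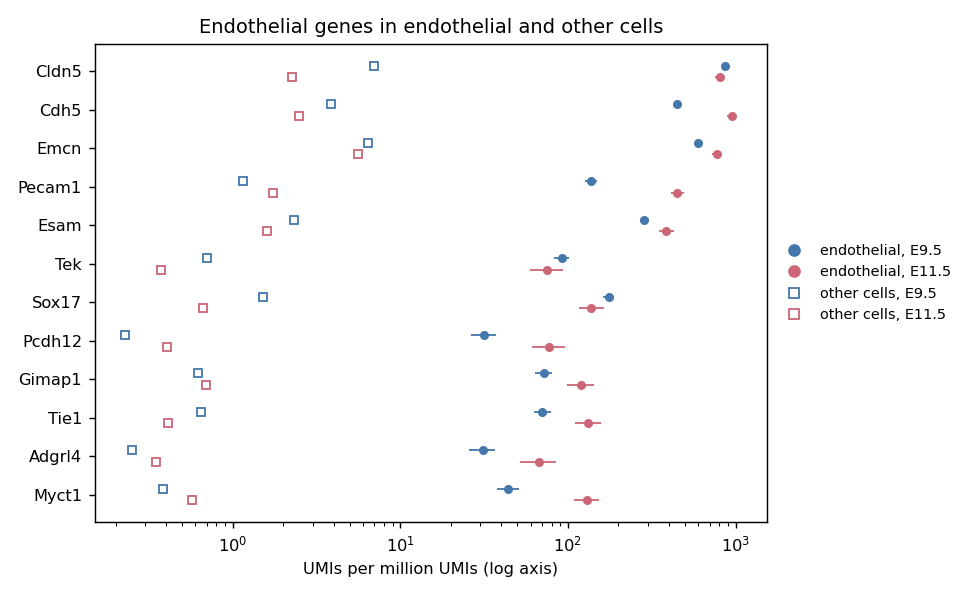
Levels of the 4 selecting genes and the other genes with the highest bound over the other cells, in UPM on a log axis, for endothelial cells (filled circles with exact 95% Poisson intervals) and all other cells (open squares) of the E9.5 and E11.5 libraries. Every endothelial point lies at least 92.7-fold to the right of its square; the first 4 genes chose the cells.

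Transcripts of other cell types were also counted in the members. The white blood cell list summed to 20.4 UPM over the members at E9.5 and 282 UPM at E11.5, above the 10.1 and 148 UPM of the other cells. At E11.5 3 cells with 90, 78 and 60 UMIs carried 79.7% of its 286 UMIs and its most abundant gene was Pf4. Its defining gene Ptprc was at 0 by the selection. The mural list, of the contractile cells that coat vessels, summed to 76.6 UPM in the earlier library, led by Tagln, and to 110 UPM in the later, led by Abcc9, where 1 cell held 60 of 111 UMIs. In the other cells it summed to 96.3 and 431 UPM. The mesenchyme list summed to 73.9 and 332 UPM, led by Tcf15 at both stages, against 965 and 1590 UPM in the other cells. The neural list summed to 194 and 326 UPM, led by Nes, against 350 and 410 UPM in the other cells. The selection also held Meox1, of the mesenchyme list, and Sox2, of the neural list, at 0 in the members. Meox1, Sox2 and Ptprc together stood at 313 UPM at E9.5 and 102 UPM at E11.5 in the other cells. Part of the gap between members and other cells in the mesenchyme and neural lists therefore follows from the selection. Mesenchyme and neural UMIs were each spread over 49 of the 59 members at E11.5. The epithelial list summed to 4.43 and 0.987 UPM in the members, and the globins, led by Hbb-y, to 31.3 and 55.3 UPM against 4725 and 11699 UPM in the other cells.

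The doublet caller Scrublet marked 7 members (2.69%) at E9.5 and 5 (8.47%) at E11.5, against 5.85% and 3.45% of all kept cells. Members with at least 5 UMIs of the white blood cell, mural or mesenchyme lists (Tcf15 not counted) numbered 23 at E9.5 and 10 at E11.5. Without them, 265 genes in place of 255 were higher at E11.5 and 214 in place of 180 lower by the criterion below.

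Promoter windows of RefSeq (GRCm38.p6) were matched for 2 of the 4 selecting genes, Cldn5 and Emcn, and for Etv2, whose stage difference led the genes that were lower at E11.5. The 250 bases before the annotated start are shown on the gene's strand because ETS factors, ETV2 among them, bind a GGAA core. Capitals mark AGGAAG or its reverse complement CTTCCT.
Cldn5, chr16:18776597-18776846, plus strand: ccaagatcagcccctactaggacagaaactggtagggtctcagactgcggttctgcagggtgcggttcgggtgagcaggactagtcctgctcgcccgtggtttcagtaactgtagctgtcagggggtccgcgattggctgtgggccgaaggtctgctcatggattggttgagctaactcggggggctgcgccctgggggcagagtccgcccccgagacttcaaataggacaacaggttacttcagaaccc
Emcn, chr3:137340828-137341077, plus strand: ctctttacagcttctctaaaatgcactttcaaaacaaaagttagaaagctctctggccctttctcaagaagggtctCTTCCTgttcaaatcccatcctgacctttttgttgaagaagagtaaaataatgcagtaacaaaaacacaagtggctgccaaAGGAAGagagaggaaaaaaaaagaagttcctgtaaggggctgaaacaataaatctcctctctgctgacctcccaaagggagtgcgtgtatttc
Etv2, chr7:30635853-30636102, minus strand: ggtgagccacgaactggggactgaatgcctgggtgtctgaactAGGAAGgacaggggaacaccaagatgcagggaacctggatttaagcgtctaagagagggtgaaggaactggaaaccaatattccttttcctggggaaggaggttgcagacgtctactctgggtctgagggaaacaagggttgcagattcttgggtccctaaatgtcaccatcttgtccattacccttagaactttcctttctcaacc

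The Emcn window held 2 of these hexamers, beginning 174 and 93 bases before the start, the Etv2 window 1, beginning 207 bases before it, and the Cldn5 window 0. Of all 32851 windows of the same 250 bases in that table, 29.5% held at least 1. Only these hexamers were marked and counted, and the windows hold further GGAA cores, on either strand, that are not. A match is a description of the letters and not a bound site.

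The first comparison asked how endothelial transcripts differed between the stage at which somite cells commit to muscle and the stage just before muscle fibres form. Of 5796 genes with at least 100 UMIs in the members of both stages together, 255 (4.4%) were at least 2-fold higher at E11.5 and 180 (3.11%) at least 2-fold lower, with the exact 95% interval of the ratio of both counts beyond 1. The E9.5 members held most of the UMIs, so that a gene reached the 100 UMIs more readily through that stage. The split moved with the depth of the cells and the filter. With each cell thinned to 5000 UMIs 88 genes were higher and 123 lower, and with at least 20 UMIs per gene 756 and 316. Thinning leaves fewer UMIs per gene and the limit of 20 admits more genes, and shares are not given for these settings. The median log2 ratio over these genes was -0.02, so levels are compared without a general shift.

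Cav1, which encodes the coat protein caveolin of the flask-shaped membrane pits of endothelium (ENSMUSG00000007655, chr6:17306335-17341452), had the highest bound of all. It stood at 5.91 UPM (3.79 to 8.79) from 24 UMIs at E9.5 and at 211 UPM (184 to 241) from 214 UMIs at E11.5, a log2 ratio of 5.16 (4.55 to 5.83). After each cell was thinned to 5000 UMIs, 1.23% of members at E9.5 and 51.9% at E11.5 had a Cav1 UMI, against 0.379% and 0.455% of the other cells. The log2 ratio in the thinned cells was 6.35. The E11.5 UMIs were thus spread over many members, and in the rest of the tissue Cav1 stood at 0.67 and 1.38 UPM.

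Sparcl1, a secreted matrix glycoprotein (chr5:104079111-104113733), went with it, at 11.8 UPM (8.72 to 15.7) at E9.5 and 276 UPM (245 to 311) at E11.5, a log2 ratio of 4.55 (4.10 to 5.02), or 3.87 in the thinned cells. Rgcc, a regulator of the cell cycle, was at 4.43 and 114 UPM, a log2 ratio of 4.68 (3.95 to 5.48). Col15a1, a basement-membrane-associated collagen, was at 19.5 and 178 UPM, 3.19 (2.80 to 3.59) on the log2 scale. Robo4, the endothelial member of the Roundabout receptors (chr9:37401897-37415115), was at 12.6 and 112 UPM, 3.15 (2.66 to 3.66). Col15a1 and Robo4 were near 0 in the other cells of both libraries, at 0.70 UPM or less.

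The remaining genes of the 12 highest were Dlk1, Cdc42ep3, Abca1, Ptn, Ahnak, Apold1 and Pmepa1, with log2 ratios between 2.57 and 3.15. Dlk1 and Ptn rested on few cells. Dlk1, an imprinted Notch-like ligand, was at 11.1 and 98.7 UPM, but 62 of its 100 UMIs at E11.5 came from 1 cell and only 12 of 59 members had any. Ptn, the growth factor pleiotrophin, was at 19.95 and 136 UPM with UMIs in 14 of 59 members, and 51 of its 138 UMIs were in 1 cell. Both were far more abundant in the other cells, at 354 and 1061 UPM at E11.5. Without the 10 E11.5 and 23 E9.5 members that carried other lineage UMIs, the log2 ratio of Dlk1 was 0.16 and that of Ptn -0.87.

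Etv2 (ENSMUSG00000006311, chr7:30633616-30635852) led the genes that were lower. Its 276 UMIs at E9.5, 68.0 UPM (60.2 to 76.5), lay in 98 of 260 members, and no UMI was found at E11.5. A count of 0 there allows up to 2.96 UPM (3 counts), so Etv2 was at least 23.0-fold lower. Outside the members Etv2 was also lower, at 8.61 UPM at E9.5 and 0.12 at E11.5.

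Hapln1, a link protein of hyaluronan matrix (chr13:89539796-89611652), was among the most abundant endothelial transcripts at E9.5, at 682 UPM (657 to 708). It stood at 124 UPM (104 to 148) at E11.5, a log2 ratio of -2.45 (-2.72 to -2.20). Hapln1 was 22.5-fold above the other cells at E9.5 and 29.6-fold at E11.5. Its level in those cells was therefore lower at E11.5 too. The myelin protein gene Pmp22 was at 215 and 33.6 UPM, -2.68 (-3.22 to -2.19). Lrp11, of the LDL receptor family, was at 55.7 and 6.91 UPM, -3.01 (-4.34 to -1.94). The forkhead gene Foxc2 was at 39.4 and 4.93 UPM, -3.00 (-4.64 to -1.74). In the cells with Meox1 that did not meet the endothelial limit, Foxc2 was higher, at 85.8 UPM at E9.5 and 29.3 UPM at E11.5.

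Lin28a, Prtg, Slc16a3 and Emb were also lower at E11.5 in the other cells. Lin28a, an RNA-binding protein of early embryonic timing, was at 28.3 UPM at E9.5 and at 0.987 UPM, a single UMI, at E11.5, and its log2 ratio in the other cells was -6.72. In the thinned cells the log2 ratio of Lin28a was -2.63 in the members, that of Prtg -5.21 and that of Pmp22 -2.07. Prtg, a receptor of the early neural tube and mesoderm, was at 140 and 7.90 UPM, a log2 ratio of -4.14 (-5.36 to -3.16), and -5.63 in the other cells. The lactate transporter Slc16a3 had a log2 ratio of -2.79 against -2.21 in the other cells, and Emb, which encodes embigin, -2.39 against -1.88. Emb rested on 10 UMIs in 4 members at E11.5, and its log2 ratio was -4.52 without the members marked by Scrublet and -4.23 without those with UMIs of another type. Fkbp11 and Gm266 completed the 12, at -2.46 and -2.41.

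Apoe, the lipid carrier apolipoprotein E (chr7:19696109-19699188), moved against the other cells. In the members it was at 294 UPM (277 to 311) at E9.5 and 66.1 UPM (51.25 to 84.0) at E11.5, a log2 ratio of -2.15 (-2.53 to -1.79). In the other cells it was at 25.6 and 119 UPM, a log2 ratio of 2.21. Apoe was thus 11.5-fold above the other cells at E9.5 and 0.556-fold at E11.5.

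**Figure D2:**
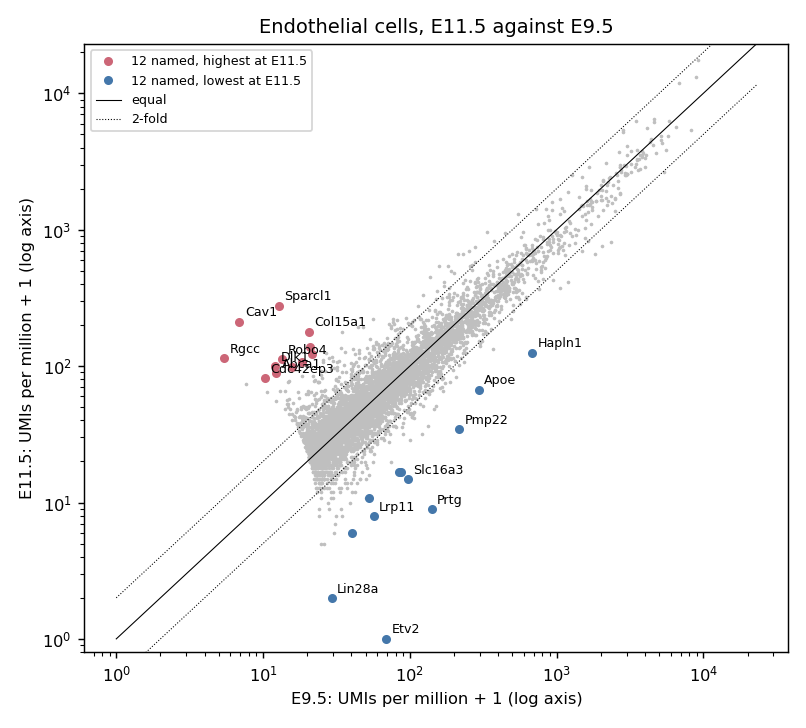
Level of each of the 5796 compared genes in endothelial cells at E9.5 (x) and E11.5 (y), as UPM plus 1 on log axes; dots are genes, coloured circles the 12 named highest and lowest by the interval bound nearest 0, and dotted lines 2-fold. Most genes lie along the diagonal, Cav1 and Sparcl1 lie farthest above it, and Etv2 lies at the floor because it had 0 UMIs at E11.5.

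Gene lists were then read by the part each plays in a vessel. Receptors for VEGF, apelin and angiopoietin were present at both stages. Of 9 receptors, 1 was at least 2-fold higher at E11.5 (Ptprb, the endothelial phosphatase VE-PTP, 38.9 to 82.9 UPM) and none lower, and the list's median log2 ratio was 0.66, with 6 of the 9 above 0. Flt1, a decoy VEGF receptor, was at 210 and 333 UPM, 0.66 (0.48 to 0.85) on the log2 scale. Nrp2, a co-receptor of veins and lymphatics, was at 149 and 81.9 UPM, -0.87 (-1.21 to -0.53). Their ligands were scarce in the members, and only Apln, Vegfb and Vegfc of 9 could be compared. Apln, the apelin peptide made by sprouting cells, was at 30.8 and 67.1 UPM, 1.12 (0.68 to 1.56).

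Over all compared genes 4.4% were at least 2-fold higher and 3.11% lower, and the counts of each list are set beside these shares. The Notch and tip-cell lists were higher at E11.5 for most of their compared genes. In the Notch list 5 of 8 compared genes were at least 2-fold higher, none lower, with a median log2 ratio of 1.31. Dll4, the endothelial Notch ligand, was at 30.5 UPM (25.4 to 36.4) at E9.5 and 79.95 UPM (63.5 to 99.4) at E11.5, and the receptor Notch4 at 24.4 and 80.9 UPM. The feedback target Nrarp was at 30.8 and 97.7 UPM, 1.67 (1.27 to 2.06), while in the other cells it was at 16.2 and 7.98 UPM. Notch1, at 111 and 161 UPM, Hes1, at 76.1 and 122 UPM, and Rbpj, the shared DNA-binding partner, at 34.7 and 51.3 UPM, stayed under 2-fold.

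In the tip-cell list 7 of 11 compared genes were at least 2-fold higher and none lower, with a median of 1.24. Pdgfb, which recruits mural cells, was at 41.4 and 121 UPM, 1.55 (1.21 to 1.90). Igfbp3 was at 156 and 542 UPM, 1.79 (1.63 to 1.96), and was also higher in the other cells, at 7.68 and 108 UPM. Unc5b, a netrin receptor, was at 27.8 and 93.8 UPM. Esm1, a proteoglycan of sprouting cells, was at 18.7 and 31.6 UPM, within 2-fold.

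In the basement membrane list 9 of 13 compared genes were at least 2-fold higher at E11.5, against 4.4% of all genes, and none lower, with a median log2 ratio of 1.24, and the summed level of its 15 genes went from 2143 to 5099 UPM. Col4a1 was at 337 UPM (319 to 355) and 963 UPM (904 to 1026), and Col4a2 at 182 and 539 UPM, log2 ratios of 1.52 and 1.56. The laminin chains Lama4 and Lamc1 were at 33.5 and 28.6 UPM at E9.5 and at 176 and 116 UPM at E11.5. Sparc, a collagen-binding protein, was the most abundant at 549 and 1293 UPM. In the other cells the summed list also went up, from 425 to 890 UPM, with log2 ratios of 3.30 for Sparc and 3.31 for Lama4, above the 1.24 and 2.39 in the members, and of 0.30 for Col4a1 and 0.01 for Lamc1, below the 1.52 and 2.03 in the members. Fn1, fibronectin, was the compared gene with a ratio below 0, at 218 and 159 UPM.

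Among caveola and lipid genes 4 of 7 compared were at least 2-fold higher and none lower, with a median of 1.73. Besides Cav1, these were Cav2 (22.9 to 76.0 UPM), Ptrf, which encodes the caveolar coat protein cavin 1 (39.9 to 133 UPM), and Apold1 (20.4 to 121 UPM). Plvap, the diaphragm protein of caveolae and fenestrae, was already at 476 UPM at E9.5 and stood at 640 UPM at E11.5, 0.43 (0.30 to 0.56). The caveola coat genes were therefore low at a stage at which the diaphragm gene was abundant.

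The endothelial transcription factors split. Of 20 compared, 1 was at least 2-fold higher at E11.5 and 4 were lower, with a median of 0.03. The lower genes were Etv2, Foxc2, which was not particular to the members as given above, and the blood and endothelial factors Tal1 (48.8 to 18.8 UPM) and Lyl1 (53.0 to 23.7 UPM). Their partner Lmo2 was at 437 and 323 UPM, -0.44 (-0.61 to -0.27), and Hhex at 132 and 72.1 UPM, -0.88 (-1.25 to -0.52). The higher gene was Sox7, at 55.2 and 132 UPM. The related Sox18 was at 342 and 466 UPM and Sox17 at 175 and 138 UPM. Erg, an ETS factor of established endothelium, was at 38.9 and 37.5 UPM, and Fli1 at 165 and 178 UPM.

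Endoglin (Eng) was at 118 and 221 UPM and its partner receptor Acvrl1 at 41.9 and 61.2 UPM, both under 2-fold. In the BMP and ALK1 list 3 of 12 compared genes, Tgfbr2, Smad7 and Bmpr2, were at least 2-fold higher and 1, Tmem100, lower, with a median of 0.58. Tmem100 was at 30.5 and 6.91 UPM and sat in 23 members at E9.5. In the junction list 0 of 10 compared genes were higher and 1 was lower, with a median of 0.07. That gene was Cgnl1, which encodes paracingulin of junctions, at 149 and 50.3 UPM, -1.57 (-2.01 to -1.15).

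Of 9 compared genes of flow sensing and haemostasis 1 was higher (Ece1, 69.5 to 159 UPM) and none lower, with a median of 0.40; at this number of genes the count is close to the 4.4% of all genes and says nothing about the list. Klf2, a flow-induced factor, was at 216 and 192 UPM, -0.16 (-0.40 to 0.06). Von Willebrand factor (Vwf) was at 20.7 and 37.5 UPM, and Selp had no UMI in the members of either stage, which allows up to 0.739 UPM at E9.5 and 2.96 UPM at E11.5.

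In the cell cycle list 1 of 16 compared genes was higher and 1 lower, with a median of -0.28. Mki67 and Top2a were level at 139 and 322 UPM at E9.5 and 171 and 342 UPM at E11.5, while the replication helicase gene Mcm5 was at 132 and 65.1 UPM. The higher gene was Cdkn1c, an imprinted cell cycle inhibitor, at 279 and 750 UPM, with 169 of 760 UMIs at E11.5 in 1 cell and 2331 UPM in the other cells at that stage.

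Specialised endothelial programmes were sparse. The haemogenic factors Runx1 and Gfi1 gave 2 UMIs and 0 UMIs at each stage, with Kit the only gene of 12 that could be compared, at 29.3 and 30.6 UPM. The lymphatic factor Prox1 gave 15 UMIs in 13 members at E9.5 and 1 UMI at E11.5, at 3.69 and 0.987 UPM, which was no higher than the 3.99 and 6.18 UPM of the other cells. Lyve1, a hyaluronan receptor of early veins and lymphatics, gave 41 UMIs in 24 members at E9.5 and 0 at E11.5, at least 3.41-fold lower.

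Of the blood-brain barrier list 5 of 15 genes could be compared, 0 were higher or lower, and the median was -0.20. Mfsd2a gave 0 UMIs in E9.5 members and 2 in E11.5 members. The glucose transporter Slc2a1 was at 263 and 304 UPM while it was at 158 and 27.3 UPM in the other cells, so that the members stood 1.66-fold above the other cells at E9.5 and 11.1-fold at E11.5.

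In the interferon and MHC list 2 of 5 compared genes were higher and none lower. These were the MHC class I gene H2-D1, at 23.9 and 84.9 UPM, and its light chain B2m, at 75.6 and 220 UPM. Among 13 genes of developmental timing and imprinting 4 were higher and 2 lower. Besides Lin28a, its relative Lin28b was lower, at 42.9 and 12.8 UPM. Besides Dlk1 and Cdkn1c, the growth factor Igf2 (279 to 577 UPM) and the zinc finger gene Plagl1 (170 to 411 UPM) were higher, and these were higher in the other cells as well, by 2.15 and 2.45 on the log2 scale.

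**Figure D3:**
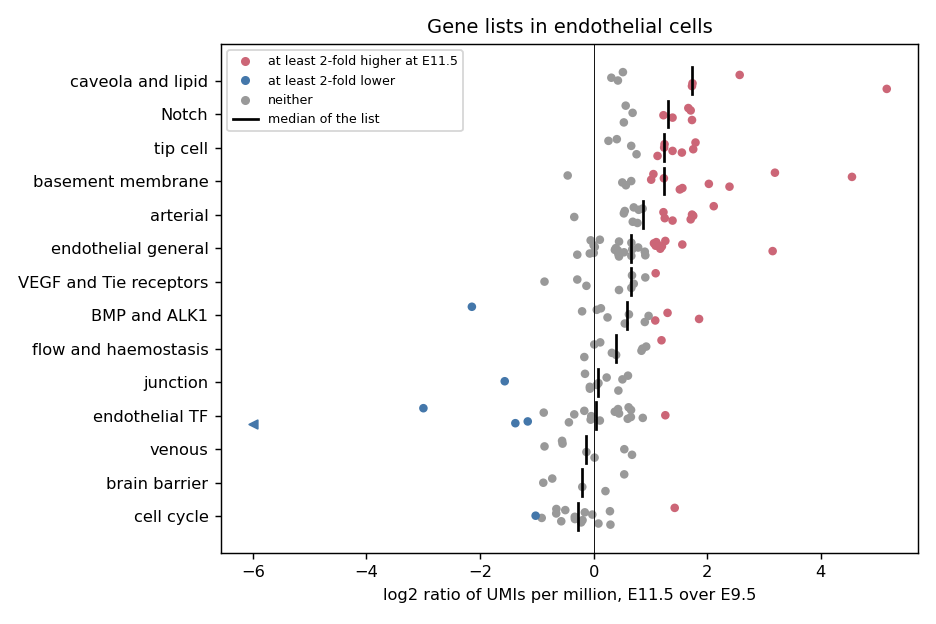
Log2 ratio of UPM, E11.5 over E9.5, for the compared genes of 14 lists in endothelial cells; each point is a gene, coloured by whether it was at least 2-fold higher, lower or neither, black bars are list medians, and the arrowhead at the left edge is Etv2, which had 0 UMIs at E11.5. The caveola, Notch, tip-cell and basement membrane lists have medians above 1, and the venous, brain barrier and cell cycle lists lie just below 0.

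The second comparison asked how arterial and venous genes stood at each stage. Of 20 arterial genes 15 could be compared, 7 were at least 2-fold higher at E11.5 and none lower, with a median log2 ratio of 0.86. That median was 0.52 in cells thinned to 5000 UMIs, 1.32 as a mean over cells and 1.37 without the members with UMIs of another type. The general endothelial list was higher as well, with 9 of 29 compared genes at least 2-fold higher, none lower and a median of 0.66. Of 13 venous genes 7 could be compared, 0 were higher or lower, and their median was -0.13. Over all compared genes 4.4% were higher and 3.11% lower, with a median of -0.02. The summed arterial list went from 962 to 1727 UPM and the venous list from 787 to 763 UPM. The arterial list shares Dll4, Hey1, Notch1, Notch4, Jag1, Jag2 and Hey2 with the Notch list, and Unc5b with the tip-cell list. The counts of the arterial, Notch and tip-cell lists are therefore not separate.

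The arterial genes that were higher were Dll4, Hey1, Efnb2, Unc5b, Notch4, Jag1 and Epas1. Hey1, a Notch target, was at 29.3 UPM (24.3 to 35.1) at E9.5 and 95.7 UPM (77.6 to 117) at E11.5, a log2 ratio of 1.71 (1.31 to 2.11). Efnb2, the arterial ligand ephrin B2, was at 56.4 and 134 UPM, 1.25 (0.93 to 1.56). Epas1, the hypoxia-inducible factor HIF2A, was at 24.6 and 107 UPM, 2.11 (1.71 to 2.52). Gja4, the arterial gap junction protein connexin 37 (chr4:127311421-127314039), was at 123 UPM (112 to 134) and 209 UPM (182 to 239), 0.77 (0.53 to 1.01), or 1.36 without the members with UMIs of another type. Sox17, an arterial factor, was the compared arterial gene below 0, at -0.34 (-0.61 to -0.08).

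Among venous genes Nr2f2 (chr7:70351944-70366735) was at 137 UPM (126 to 149) and 138 UPM (116 to 163), a log2 ratio of 0.02 (-0.26 to 0.29). Nr2f2 was no higher than in the other cells, at 160 and 182 UPM. The apelin receptor Aplnr (chr2:85136225-85139923), a venous and capillary receptor, was at 151 UPM (140 to 164) and 242 UPM (212 to 274), and was 47.5-fold and 268-fold above the other cells. Flt4, the receptor of VEGFC, was at 102 and 93.8 UPM, and Ephb4, the venous partner of ephrin B2, at 44.8 and 65.1 UPM.

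Members were next sorted by their own arterial and venous transcripts. A cell was of the arterial class when Gja4, Gja5, Dll4 and Hey1 together gave at least 3 UMIs and at least 3 times the UMIs of Nr2f2, Aplnr and Flt4, and of the venous class in the reverse case. After thinning to 5000 UMIs, which left out 16 members at E9.5 and 7 at E11.5, 29 of 244 members (11.9%, 8.11 to 16.6) were arterial at E9.5 and 8 of 52 (15.4%, 6.88 to 28.1) at E11.5. The venous class held 72 of 244 (29.5%, 23.9 to 35.7) and 20 of 52 (38.5%, 25.3 to 53.0). These intervals cover the counting of cells within a library, and the shares of the stages were not tested against each other.

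The classes are ranges of a count and not cell types. At 5000 UMIs, 13 members at E9.5 and 5 at E11.5 leaned arterial with 2 to 4 UMIs of the class genes, and 106 and 16 leaned venous with 2 to 4 UMIs. Without thinning the arterial class held 31 of 260 members (11.9%) at E9.5 and 13 of 59 (22.03%) at E11.5, and the venous class 164 of 260 (63.1%) and 28 of 59 (47.5%), so that the order of the venous shares turned with the thinning. In thinned cells with a class limit of 2 UMIs and 2 times, the venous shares were 48.8% and 48.1%. UMIs of both sets were found in 86 members at E9.5 and 32 at E11.5. The unthinned arterial cells had fewer UMIs, with medians of 8758 and 12835, than the venous cells, with 15273 and 19190.

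Genes outside the class rule separated the unthinned classes at both stages. Of 5161 genes with at least 100 UMIs over both classes and stages, 201 (3.89%) were higher in the arterial class and 208 (4.03%) in the venous class, with the interval of the ratio on the same side of 1 in both libraries. The venous class held more cells, with a higher median depth. A gene therefore reached the 100 UMIs more readily through that class. Of 10 compared arterial genes that the rule did not use, 7 were higher in the arterial class. Of 4 compared venous genes 1, Nrp2, was higher in the venous class. Other lists leaned to the arterial class too. In it 6 of 13 basement membrane, 4 of 9 flow and haemostasis and 6 of 29 general endothelial genes were higher, and 0 in the venous class. Of 9 compared tip-cell genes 5 were higher in the arterial and 3 in the venous class. The separation was thus not particular to arterial and venous genes.

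The genes named next had to lie on the same side in both libraries, so that the match between the stages is part of their choice. Efnb2 was at 203 UPM in the arterial and 33.3 UPM in the venous class at E9.5, and at 340 and 69.3 UPM at E11.5, log2 ratios of 2.61 (2.16 to 3.06) and 2.29 (1.71 to 2.89). Vegfc, a lymphangiogenic growth factor, was at 138 against 7.55 UPM and at 146 against 8.25 UPM. Mecom, a zinc finger factor, was at 211 against 23.7 UPM and at 235 against 24.8 UPM. The 8 genes with the highest bounds were Sat1, Vwf, Vegfc, Unc5b, Stmn2, Serpinf1, Tm4sf1 and Mecom. Sat1, which breaks down polyamines, was at 1085 against 69.0 UPM at E9.5 and at 847 against 59.4 UPM at E11.5, log2 ratios of 3.98 and 3.83.

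Among the genes higher in the venous class, Odc1, the first enzyme of polyamine synthesis, was at 420 UPM in the venous and 78.3 UPM in the arterial class at E9.5, and at 571 and 52.3 UPM at E11.5. The cyclin gene Ccnd1 was at 311 against 104 UPM and at 482 against 78.4 UPM. The nucleolar protein gene Ncl was at 2264 against 890 UPM and at 927 against 424 UPM. Crabp1, Flrt2, Nrp2, Gm13889 and Dctpp1 completed the 8 genes with the highest venous bounds. Depth differs between the classes, as given above, and its part in these differences was not tested.

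Several differences between the classes were smaller at E11.5. Cav1 was at 28.7 UPM in the arterial and 2.06 UPM in the venous class at E9.5, and at 293 and 180 UPM at E11.5, so that its log2 ratio between stages was 3.35 (2.40 to 4.43) in the arterial and 6.45 (5.28 to 7.93) in the venous class. Sparcl1 was at 70.4 against 3.09 UPM at E9.5 and at 298 against 241 UPM at E11.5. Sox17 was 1.91 (1.65 to 2.16) higher in the arterial class on the log2 scale at E9.5, whereas the value at E11.5 was 0.11 (-0.56 to 0.75). The stage differences of Cav1, Sparcl1, Col15a1, Robo4, Hapln1 and Apoe kept their sign in each class, with intervals that did not include 0.

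**Figure D4:**
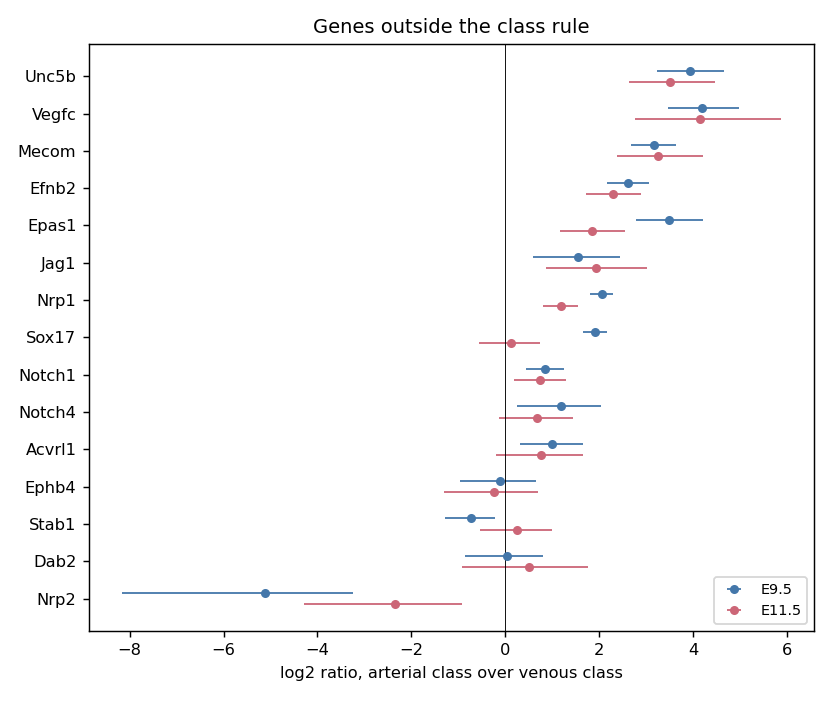
Log2 ratio of UPM, arterial class over venous class, for arterial and venous genes that the class rule did not use, at E9.5 and E11.5; points are ratios of summed counts and bars exact 95% intervals. Unc5b, Vegfc, Mecom and Efnb2 lie above 1.7 at both stages over their whole intervals, Nrp2 lies below 0 at both, and Sox17 lies above 0 at E9.5 with an interval that includes 0 at E11.5.

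The members at E9.5 also differed among themselves by Etv2. With at least 2 Etv2 UMIs there were 48 members, with 1 UMI 50, and with none 162. This split was made after the Etv2 values had been seen. The median depth was 14966 UMIs in the first set and 12866 in the last. Of 4349 other genes with at least 100 UMIs over both sets, 18 (0.414%) were at least 2-fold higher in the cells with Etv2 and 147 (3.38%) at least 2-fold lower. The cells with Etv2 held 796863 UMIs and those without 2363272, so that a gene reached the 100 UMIs more readily through the cells without Etv2, which favours lower calls in these counts. With a filter that weighs both sets equally, a mean of at least 30 UPM, 26 of 4446 genes were higher (0.585%) and 116 lower (2.61%). A gene can still reach this mean through the set in which it is high.

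Many of the compared endothelial transcripts were lower in the cells with Etv2. Of 28 compared genes of the endothelial list, which did not choose the cells, 10 were at least 2-fold lower and 0 higher, with a median log2 ratio of -0.62 against 0.00 over all compared genes. With the equal filter 7 of 25 were lower and 0 higher. By the interval alone 20 lay below 0, against 559 (12.9%) of all compared genes, and 2, Egfl7 and Mmrn1, above it. The 4 selecting genes, given as a description only, went both ways. Cldn5 was at 1043 UPM in the cells with Etv2 and 810 UPM in those without, Emcn at 410 and 706 UPM, Cdh5 at 235 and 524 UPM and Pecam1 at 38.9 and 187 UPM. Cd34 was at 216 and 537 UPM, Plvap at 266 and 564 UPM, and Kdr at 314 and 416 UPM. Tek, at 91.6 and 89.3 UPM, and Fli1, at 159 and 158 UPM, were level. In the basement membrane list 8 of 10 compared genes were at least 2-fold lower, and 7 of 9 with the equal filter. Among them were Col4a1, at 125 and 430 UPM, and Col4a2, at 54.0 and 240 UPM. Genes such as Adgrl4, with 5 and 97 UMIs, and Clec14a, with 8 and 104, passed the first filter through the cells without Etv2. The counts of the endothelial and basement membrane lists are therefore a description only.

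Summed transcripts of other cell types also differed by this split, in both directions. Of the 12 genes of the mesenchyme list none reached the 100 UMIs needed for the comparison, and 3 were at 0 in each set. The list summed to 108 UPM in the cells with Etv2, led by Twist1, and to 59.2 UPM in those without, led by Tcf15. Col3a1, a fibrillar collagen of connective tissue, was at 18.8 and 0.846 UPM from 15 and 2 UMIs, Twist1 at 50.2 and 16.1 UPM, Dlk1 at 30.1 and 5.50 UPM and Tcf15 at 16.3 and 36.0 UPM. The mural list summed to 28.9 and 109 UPM, the neural list to 127 and 223 UPM, the white blood cell list to 11.3 and 24.1 UPM and the globins to 61.5 and 23.7 UPM. The part of these transcripts in the differences by Etv2 was not tested.

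Of 11 compared arterial genes 7 were at least 2-fold lower in the cells with Etv2 and 0 higher, with a median log2 ratio of -1.50, and the summed list was at 525 UPM in these cells and 1229 UPM in those without. This count leaned on the filter, since Gja5 and Dll4 passed it through the cells without Etv2. With the equal filter 3 of 7 were lower and 0 higher, with a median of -0.77. That filter does not remove the leaning, since Gja4 also passed it through the cells without Etv2. The counts of this list are therefore a description only. Gja4 was at 7.53 UPM against 206 UPM, a log2 ratio of -4.77 (-6.23 to -3.64), and Gja5 at 0 against 43.2 UPM. Dll4 was at 8.78 and 40.2 UPM and Mecom at 8.78 and 57.55 UPM. Others were well represented, with Nrp1, the most abundant, at 158 and 230 UPM, Sox17 at 123 and 210 UPM and Notch1 at 89.1 and 109 UPM. Of 7 compared venous genes 1, Nrp2, was at least 2-fold higher and 0 lower, with Aplnr at 128 and 148 UPM, Flt4 at 107 and 98.6 UPM, Nr2f2 at 186 and 105 UPM, 0.82 (0.52 to 1.12), and Nrp2 at 289 and 98.2 UPM, 1.56 (1.29 to 1.83).

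Of 18 other endothelial transcription factors compared, 3 were at least 2-fold higher, Tal1, Hhex and Foxc2, and 1, Klf2, lower. Foxc2 was more abundant in the other E9.5 cells with Meox1 than in all E9.5 members, as given above. Tal1 was at 109 and 31.3 UPM, 1.80 (1.34 to 2.27), and Hhex at 242 and 90.6 UPM, 1.42 (1.13 to 1.71). Gadd45g, a stress and cell cycle gene, had the highest bound after Etv2, at 181 and 23.3 UPM, 2.96 (2.50 to 3.43). Ebf1, Gpc3 and Igfbp5 were also higher, at 102, 91.6 and 87.8 UPM against 28.4, 14.8 and 15.7 UPM.

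**Figure D5:**
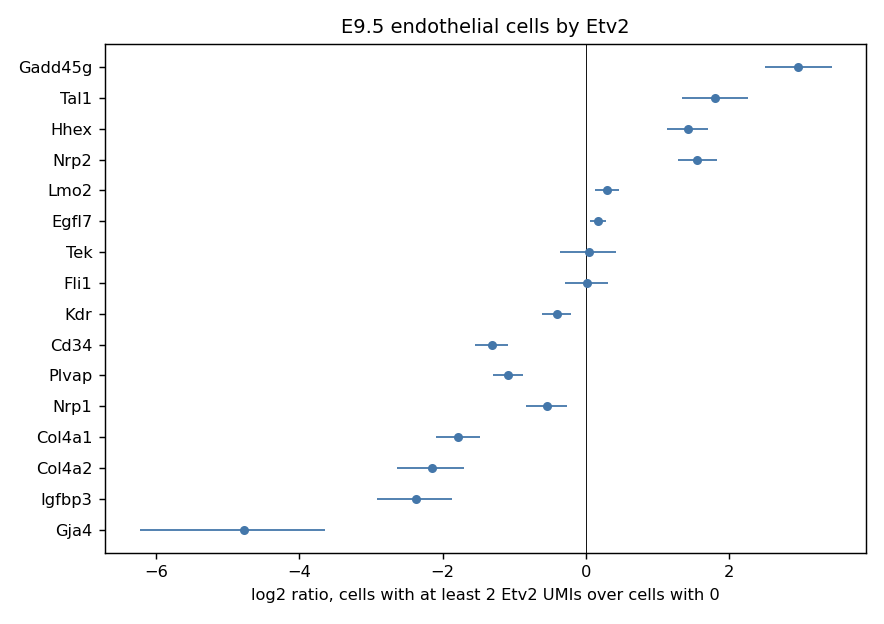
Log2 ratio of UPM in E9.5 endothelial cells, the 48 members with at least 2 Etv2 UMIs over the 162 members with none, with exact 95% intervals. Gadd45g, Tal1, Hhex and Nrp2 lie above 0, Kdr, Cd34, Plvap and Col4a1 below it, and Gja4 is the lowest of the genes drawn.

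Stage differences were set beside those of the other cells of the same libraries. The stage ratio stood highest against that of the other cells for Sparcl1, Grrp1, Cav1, Prdm1, Slc2a1 and Trim71. Sparcl1 was at 20.5 and 23.4 UPM in the other cells, a log2 ratio of 0.20 against 4.55 in the members. Grrp1 was level in the members, at 103 and 108 UPM, and lower in the other cells, at 38.5 and 2.87 UPM. Trim71, a repressor of early developmental timing, was lower in the members by -1.17 on the log2 scale and in the other cells by -4.32.

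The stage ratio stood lowest against the other cells for Igf1, Nfib, Tnnt1, Apoe, Lgals1 and Arhgdib. Igf1, an insulin-like growth factor, was at 116 and 104 UPM in the members and at 4.56 and 241 UPM in the other cells, so that it was 25.4-fold above them at E9.5 and 0.431-fold at E11.5. Nfib, a transcription factor of maturation, was at 61.3 and 131 UPM in the members and at 2.63 and 234 UPM in the other cells. Arhgdib, a gene of blood and endothelial cells, was at 84.2 and 75.01 UPM against 2.82 and 40.9 UPM. All 6 genes were above the other cells at E9.5, and of these only Arhgdib was above them at E11.5.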

How the data were processed

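Somite cells were run on the 10x Genomics platform, and per the labels the authors made the deposited counts, whole UMIs per gene and barcode, with Cell Ranger 3.0.1 on mm10. Each library lists 27998 genes. Gene positions came from GENCODE M21 and promoters from RefSeq, both on GRCm38, the assembly that mm10 names.

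UMIs of the members were summed per library in Python 3.11.15 (numpy 2.4.6, scipy 1.17.1, pandas 2.3.3) and divided by their total. Ratios have the exact 95% interval of 2 Poisson counts, which covers counting error only. Doublets were called with Scrublet (scanpy 1.11.5) and kept; leaving them out was an alternative. The self-test ran on drawn counts. The members and gene lists were chosen with earlier results of these data known. Named genes were those of the lists, the 12 highest and 12 lowest between stages by the bound nearest 0 (marker lists of other cell types left out), the 12 highest over the other cells, 8 for each class and 6 on each side against the other cells. Class shares used cells thinned to 5000 UMIs. Etv2-positive cells were compared after their values were seen.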

Additional observations from a re-analysis of the deposited data

Results flagged for a closer look

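At E9.5, 74 cells carried the endothelial genes together with Meox1, a somite factor, and were left out by the selection; 33 of them had a single Meox1 UMI. Scrublet marked 33.8% of these 74 cells, against 2.69% of the members, and their median depth was 19899 UMIs. Etv2 stood at 115.1 UPM (99.6 to 132) in them against 68.0 UPM (60.2 to 76.5) in the members and 8.97 UPM in the other cells with Meox1. In the 49 cells that Scrublet did not mark, Etv2 was at 171 UPM (147 to 197) and Kdr at 281 UPM, and in the 25 marked cells Etv2 was at 25.6 UPM (14.9 to 41.0) and Kdr at 151 UPM. Of 32 cells left out at E9.5 with Sox2, 62.5% were marked.

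For 5 named genes the log2 ratio of E11.5 over E9.5 had one sign in the endothelial cells and the other in the rest of the same libraries, each at least 2-fold. These were Nrarp (1.67 in endothelial cells, -1.02 in the others), Apln (1.12 and -1.72), Prdm1 (2.26 and -1.35), Apoe (-2.15 and 2.21) and Tagln (-1.71 and 1.17). The difference was not tested, since each stage is 1 library. Over all compared genes 17 did so.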

How the results depend on the processing

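With 1 library per stage no embryo-to-embryo spread could be estimated, and the 59 members of E11.5 limit the comparisons that use that stage. No paired analysis was possible because each group is 1 sample. Without the limit on Meox1, Sox2 and Ptprc the endothelial share was 3.59% at E9.5 and 0.802% at E11.5, the arterial median 0.62 and the venous-class share at E11.5 24.3%. In cells thinned to 5000 UMIs 88 genes were higher at E11.5 and 123 lower, the arterial median was 0.52 and 65 genes were 4-fold above the other cells; 154 passed at 8-fold. With at least 20 UMIs per gene 756 were higher and 316 lower, with no filter 1094 and 330, and at 1.5-fold 645 and 559. Thinning leaves fewer UMIs per gene and a lower limit admits more genes, so these counts are not given as shares. The arterial median was 0.99 without Scrublet calls and 1.32 as a mean over cells. The venous median was -0.34 with at least 20 UMIs. The venous-class share at E9.5 was 63.1% without thinning and 48.8% with a class limit of 2 UMIs and 2 times. At E11.5 these shares were 47.5% and 48.1%. Among settings chosen after seeing the data, leaving out cells with 2 white blood cell genes gave a venous median of -0.26, and leaving out cells with 5 UMIs of another type gave 1.37 for the arterial and -0.32 for the venous median. Ptn turned to -0.45 with 5 more genes held at 0 and to -0.87 without the cells with UMIs of another type. Of 404 values of 34 single genes, 357 stayed within the counting interval, 45 left it, and these 2 turned a value that had passed the 2-fold criterion. The values of Cldn5 and Nr2f2, which had not passed it, also changed sign, to at most 0.12 and down to -0.36. Causes were not tested.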
